A study of Homo sapiens with 14 samples.

Results

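The 48 genes described here belong to 6 families of splicing factors, measured in Kasumi-1 cells with and without knockdown of AML1-ETO. Kasumi-1 is an established cell line from a human acute myeloid leukaemia and carries AML1-ETO, a fusion of RUNX1 with RUNX1T1 (ETO). The members are all genes on the array whose symbol starts with SRSF, SNRP, SF3A, SF3B, U2AF or HNRNP, apart from HNRNPD, which is 48 of the 11963 genes with a probe set of their own, and 104 of all 22283 probe sets. They were 9 SRSF, 11 SNRP, 3 SF3A, 5 SF3B, 2 U2AF and 18 HNRNP genes. Each gene was represented by its brightest probe set. A further 19 probe sets with several symbols, at least 1 of them from these families, were left out. Genes whose symbols begin with SNRNP do not fall under the rule and were counted among the other genes of the pathway.

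Introns are removed by the spliceosome, which assembles on each intron from small nuclear ribonucleoproteins (snRNPs) and loose factors. The U1 snRNP recognises the 5′ splice site, the U2AF heterodimer reads the 3′ splice site, and the SF3A and SF3B complexes hold the U2 snRNP on the branch site. SNRP genes code for the Sm ring, on which most spliceosomal snRNAs are built, and for proteins of the U1 and U2 snRNPs. SR proteins (SRSF genes) bind exons and mostly favour their use, and hnRNPs coat nascent transcripts and often oppose it. In myeloid leukaemia, recurrent mutations hit several of these genes, SF3B1 and U2AF1 among them. Expression was measured here, not mutation or splicing.

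Total RNA was hybridised to 14 single-colour arrays, taken 96 h after transfection. An siRNA against AML1-ETO was given by nucleofection (an electrical method, at 1.5 µM siRNA) on 3 arrays and by a lipid reagent (at 240 nM) on 3 arrays. An siRNA against firefly luciferase served as control on 2 arrays by nucleofection and on 3 by lipid. A single array had nucleofection without siRNA, and 2 arrays had untransfected cells. All groups are the same line in the same medium, and siRNA dose and method cannot be told apart. Among the 14 arrays there is no replicate 3 of luciferase nucleofection and no replicate 2 of the untransfected cells. The labels name no batch and do not say whether replicates were separate cultures, so the p-values measure only the spread between these arrays.

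Signals are linear MAS5 intensities, all arrays being scaled to a mean of 138.5. Signals of different probe sets are not on a common scale, so levels are compared between arrays. Brightness was used to choose probe sets and genes, not to compare expression between genes. The target was lower with AML1-ETO siRNA: the brightest RUNX1T1 probe set read 318, 328 and 251 with AML1-ETO siRNA by nucleofection, against 644 and 763 with luciferase siRNA by nucleofection. By lipid it read 399.7, 426 and 502 with AML1-ETO siRNA, against 539.7, 560.3 and 567 with luciferase siRNA. The log2 difference was −1.24 by nucleofection (limma, adjusted p = 0.00288) and −0.34 by lipid (adjusted p = 0.999), with no overlap between the arrays in either. Of 8 myeloid genes, KIT, MPO, PTPRC, SPI1, CD53, LAPTM5 and CD34 were above the floor of 20 on all 14 arrays and CD38 on 11 of 14, with a lowest signal of 6.97. The erythroid gene ALAS2 was below it on all. Of the markers of other cells, HBB and EPOR of 3 erythroid, CD3E of 5 lymphoid, and EPCAM, COL1A1 and DCN of 7 fibroblast or epithelial genes were also above the floor on all 14 arrays.

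Of the 48 genes, 47 passed the filter on dim genes. HNRNPA3P1, named as a pseudogene, lay below the floor on 13 of 14 arrays and was not tested. The median SD of the 47 over 14 arrays was 0.24, against 0.31 over all 7178 genes tested, on the log2 scale. The 2 sets were not matched for signal: the median was 466 for the members, against 83.9 over all genes tested. HNRNPA1, which shuttles between nucleus and cytoplasm, was the least variable tested member, with an SD of 0.12. SF3B2, a subunit of the SF3B complex, was the most variable, with an SD of 0.46. By name, 30 of the 48 representative probe sets end in _s_at or _x_at and can take signal from related transcripts.

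For each family, the member with the brightest probe set is given in all groups, as an example. SRSF7, an SR protein, read 817, 728 and 754 with AML1-ETO siRNA by nucleofection, 829, 757 and 802 with AML1-ETO siRNA by lipid, 704 and 928 with luciferase siRNA by nucleofection, 887, 795 and 799.6 with luciferase siRNA by lipid, 974 without siRNA and 750.4 and 739.9 in untransfected cells. It passed no test, and the array without siRNA was the highest of all. SNRPB, of the Sm ring, read 1559, 1488 and 1203 with AML1-ETO siRNA by nucleofection, 1473, 1513 and 1806 with AML1-ETO siRNA by lipid, 1497 and 1402 with luciferase siRNA by nucleofection, 1765, 1701 and 1653 with luciferase siRNA by lipid, 1665 without siRNA and 1858 and 1540.1 in untransfected cells. SF3B1, which contacts the branch site, read 1053, 1213 and 949 with AML1-ETO siRNA by nucleofection, 1194, 1168 and 1358 with AML1-ETO siRNA by lipid, 982 and 1047 with luciferase siRNA by nucleofection, 1160.4, 1203 and 1339 with luciferase siRNA by lipid, 924 without siRNA and 1265 and 1145 in untransfected cells. On these probe sets, neither SNRPB nor SF3B1 passed the test in any of the 9 comparisons. Other probe sets of both were called lower between nucleofection and lipid, as given below. HNRNPH1, which binds runs of G, read 1843, 2096 and 1910.1 with AML1-ETO siRNA by nucleofection, 2010.1, 1834 and 1575 with AML1-ETO siRNA by lipid, 1721 and 2150.5 with luciferase siRNA by nucleofection, 1324, 1641 and 1634 with luciferase siRNA by lipid, 1944 without siRNA and 1494 and 1599.6 in untransfected cells. It too passed no test on this probe set. Between nucleofection and lipid, its 2 probe sets with a mean signal of at least 50 went opposite ways, at −0.30 and 0.22. SF3A1 and U2AF1, the brightest of their families, are given with the transfection methods below.

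**Figure D1:**
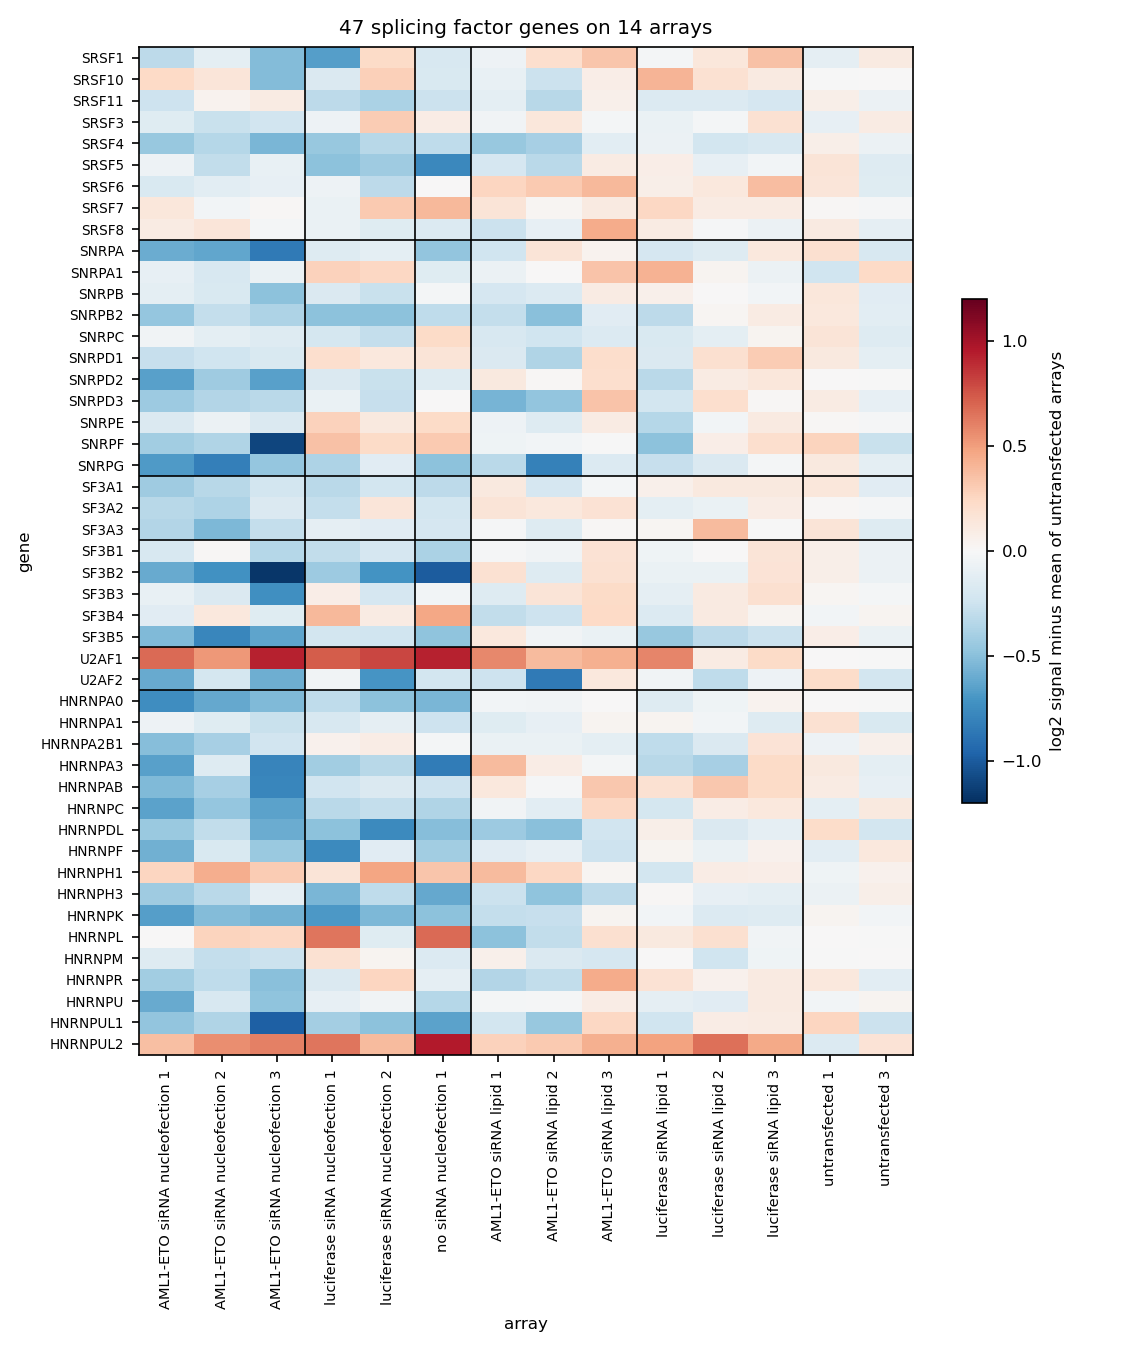
Log2 signal of the 47 tested genes (rows, grouped by family) on the 14 arrays (columns, grouped by treatment), each minus that gene's mean over the untransfected arrays. U2AF1 and HNRNPUL2 stand above untransfected cells on all 12 transfected arrays, and SF3B2 is lowest on the nucleofection arrays.

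In the heat map of members by array, the row of U2AF1 is raised on every transfected array and that of SF3B2 is lowered on every nucleofection array. Most other rows show no block of colour that follows the siRNA.

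Knockdown of AML1-ETO, the comparison the series was built for, changed none of the 47 genes past the threshold. Averaged over both methods, 0 of 47 passed limma's test at an adjusted p of 0.05, against 1.66% of all 7178 genes (119 called). At an unadjusted p below 0.05 there were 3 members, against 14.4% of all genes. The member differences were small: 38 of 47 lay below 0, against 64.9% of all genes, and their median was −0.10, against −0.07 over all genes, on the log2 scale. When arrays were centred on their medians instead, 27 of 47 lay below 0 and the median was −0.01, against 0.01 over all genes. For 43 of 47 members the 95% confidence interval lay inside a 1.5-fold change in either direction.

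The 3 members with an unadjusted p below 0.05 all code for the Sm ring, the heptamer that encircles the spliceosomal snRNAs. SNRPF read 637, 663 and 396 with AML1-ETO siRNA by nucleofection, against 1086 and 997 with luciferase siRNA by nucleofection. By lipid it read 823, 832 and 846 with AML1-ETO siRNA, against 604, 899 and 977 with luciferase siRNA. The groups were apart by nucleofection and overlapped by lipid, and the mean log2 difference was −0.44 (SE 0.17) with an adjusted p of 0.275. SNRPG read 611, 555 and 709 with AML1-ETO siRNA by nucleofection, against 759 and 891 with luciferase siRNA by nucleofection, and 784, 557 and 873 with AML1-ETO siRNA by lipid, against 807, 869 and 964 with luciferase siRNA by lipid. Its arrays were apart by nucleofection and overlapped by lipid, and the mean difference was −0.34 (SE 0.14) with an adjusted p of 0.28. SNRPD1 read 385, 396 and 410.2 with AML1-ETO siRNA by nucleofection, against 537 and 509 with luciferase siRNA by nucleofection, and 414, 362 and 540.2 with AML1-ETO siRNA by lipid, against 412, 532 and 577 with luciferase siRNA by lipid. Again the arrays were apart by nucleofection and overlapped by lipid, and the mean difference was −0.31 (SE 0.13) with an adjusted p of 0.318. All 7 Sm ring genes (SNRPB, SNRPD1, SNRPD2, SNRPD3, SNRPE, SNRPF and SNRPG) had a mean difference below 0, with a median of −0.21, and 6 of 7 did with arrays centred on their medians. By nucleofection 7 of 7 lay below 0 and by lipid 4 of 7. Second probe sets were at 0.02 for SNRPB, −0.09 for SNRPD1 and −0.41 for SNRPE in the mean of both methods. The Sm ring is not 1 of the 6 families that define the members. None of the 7 passed the test. The member with the next smallest p was HNRNPAB, an RNA-binding protein of the hnRNP A and B type, at −0.23 (SE 0.11) and an adjusted p of 0.359.

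The other families were closer to 0. The median differences in the mean of both methods were −0.05 over 9 SRSF genes, −0.10 over 3 SF3A genes, −0.09 over 5 SF3B genes, −0.04 over 2 U2AF genes and −0.10 over 17 HNRNP genes. SRSF11 stood highest of all members at 0.18 and HNRNPH1 followed at 0.13, with adjusted p of 0.47 and 0.65. The second probe set of SRSF11 was at −0.31 (SE 0.23), on the other side of 0, with an adjusted p of 0.589. With arrays centred on their medians the SRSF median was 0.04, on the other side of 0.

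Taken by nucleofection alone, where the target was lowest, again 0 of 47 members passed, against 2.62% of all genes (188 called). At an unadjusted p below 0.05 there were 7 members, against 18.9% of all genes. SNRPF had the smallest p, at −0.92 (SE 0.26) and an adjusted p of 0.0838. SNRPA, the U1 snRNP protein that binds a stem loop of U1 snRNA, read 253, 247 and 212 with AML1-ETO siRNA by nucleofection, against 344 and 352 with luciferase siRNA by nucleofection, a difference of −0.55 (SE 0.18) with an adjusted p of 0.129. SF3B5, a small SF3B subunit, read 477, 401 and 446 with AML1-ETO siRNA by nucleofection, against 592 and 585 with luciferase siRNA by nucleofection, a difference of −0.42 (SE 0.15) with an adjusted p of 0.152. HNRNPA2B1, a nuclear RNA-binding protein, read 931, 1007 and 1129.8 with AML1-ETO siRNA by nucleofection, against 1372 and 1406 with luciferase siRNA by nucleofection, a difference of −0.45 (SE 0.16) with an adjusted p of 0.166. In all 4 genes, each AML1-ETO array was below each luciferase array. That pattern is common with 3 arrays against 2: 18 of 47 members lay wholly below, against 25.3% of all genes, and 5 of 47 wholly above, against 12% of all genes. Of the 11 SNRP genes, 8 lay wholly below and 2 wholly above. In this family 2 had an unadjusted p below 0.05 and 0 passed. A measure of RNA integrity and labelling also split these arrays by siRNA: the log2 ratio of the 3′ to the 5′ GAPDH control probe set was between −0.18 and −0.11 with AML1-ETO siRNA by nucleofection, against between 0.033 and 0.25 with luciferase siRNA by nucleofection. The same ratio for ACTB did not split them. It was between 0.29 and 0.46 with AML1-ETO siRNA by nucleofection, against between 0.38 and 0.84 with luciferase siRNA by nucleofection. The part of either ratio in the result was not tested. The intervals are wide here, and 18 of 47 lay inside a 1.5-fold change. In 3 of the alternative analyses 1 member passed.

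By lipid, 0 of 47 members passed, against 0.125% of all genes (9 called), and 1 member had an unadjusted p below 0.05, against 4.53% of all genes. That member was SF3B5, which read 753, 670.5 and 651 with AML1-ETO siRNA by lipid, against 505, 556 and 578 with luciferase siRNA by lipid, a difference of 0.34 (SE 0.13) with an adjusted p of 0.956. HNRNPH3, a relative of HNRNPH1, read 291, 249 and 281 with AML1-ETO siRNA by lipid, against 352, 327 and 321 with luciferase siRNA by lipid, a difference of −0.29 with an adjusted p of 0.999. HNRNPDL, a paralogue of the AU-rich element binder HNRNPD, read 528, 507 and 612 with AML1-ETO siRNA by lipid, against 751, 634 and 664 with luciferase siRNA by lipid, a difference of −0.32 with an adjusted p of 0.999. Next by p, level with SNRPB2, was SRSF10, an SR protein that can repress splicing, which read 259, 231 and 292 with AML1-ETO siRNA by lipid, against 365, 313 and 297 with luciferase siRNA by lipid, a difference of −0.32 with an adjusted p of 0.999. In the last 3 genes the AML1-ETO arrays lay below all luciferase arrays, as in 5 of 47 members against 4.95% of all genes, and no test was passed. For 35 of 47 members the interval lay inside a 1.5-fold change.

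**Figure D2:**
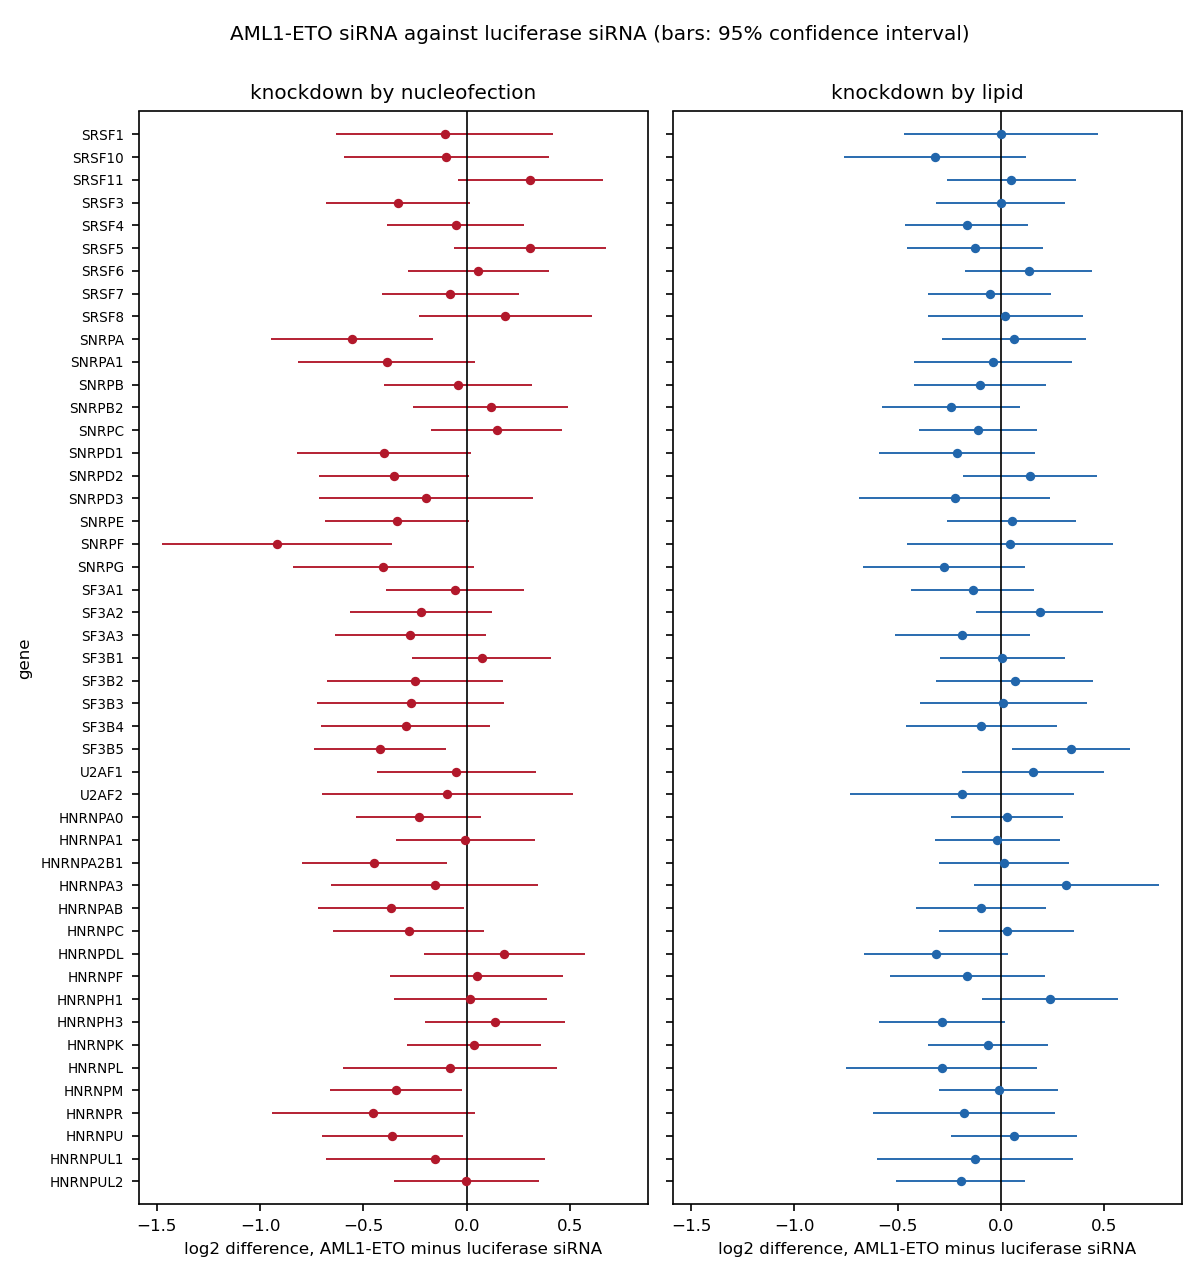
Log2 difference of AML1-ETO siRNA minus luciferase siRNA for each of the 47 genes (rows), by nucleofection (left, 3 against 2 arrays) and by lipid (right, 3 against 3 arrays), with 95% confidence intervals from limma. SNRPF lies lowest by nucleofection at −0.92, and SF3B5 lies on opposite sides of 0 in the 2 panels.

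The plot of knockdown differences by method shows SF3B5 below 0 by nucleofection and above 0 by lipid. The difference between methods in the knockdown effect was tested directly, and 0 of 47 members passed, against 0.0557% of all genes (4 called), with 4 members at an unadjusted p below 0.05, against 10.8% of all genes. SF3B5, the member with the smallest p, differed by −0.76 (SE 0.20) with an adjusted p of 0.242. On its arrays, the order by nucleofection was AML1-ETO below luciferase and by lipid AML1-ETO above luciferase, with no overlap in either. Its untransfected arrays, at 727 and 655, were close to the AML1-ETO lipid arrays, and the array without siRNA read 493. SNRPF differed by −0.96 (SE 0.35) (adjusted p = 0.349), SNRPA by −0.62 (SE 0.24) (adjusted p = 0.382) and SNRPD2 by −0.49 (SE 0.22) (adjusted p = 0.458).

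AML1-ETO binds DNA through the Runt domain of RUNX1. TGTGGT, a core site of this domain, was the only form of the site searched. The 250 bases before the annotated start, from RefSeq on GRCh38.p14, were found for 44 of the 48 genes. TGTGGT on either strand was in 2 of these 44 (4.55%), SNRPF and SF3A3, against 10.9% of 27305 promoters of the same length. CCGGAAG, a site for ETS factors, was in 16 of 44 (36.4%), against 8.82% of all. It was in 7 of 10 SNRP, 3 of 3 SF3A, 2 of 4 SF3B, 1 of 2 U2AF, 2 of 9 SRSF and 1 of 16 HNRNP promoters. GGGCGG, the GC box, was in 59.1% of members and 42.3% of all, and member promoters had a median GC content of 62.8%, against 58% of all. The 27305 promoters outnumber the 11963 genes on the array, so these shares are not set against genes tested here or of like signal. A match is a description of the letters and no evidence of binding. The promoter of SNRPF is shown because this gene had the smallest p for knockdown and holds the RUNX core, in capitals on the reverse strand. It lies at chr12:95858702-95858951 on the plus strand of GRCh38.p14.
SNRPF: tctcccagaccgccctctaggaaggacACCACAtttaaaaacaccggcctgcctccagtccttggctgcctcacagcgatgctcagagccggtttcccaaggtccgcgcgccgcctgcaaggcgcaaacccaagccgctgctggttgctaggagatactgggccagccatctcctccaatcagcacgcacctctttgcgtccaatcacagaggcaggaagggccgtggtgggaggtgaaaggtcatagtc

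With the deposited scaling, more of these genes were called between nucleofection and lipid than between the siRNAs. Method and siRNA dose cannot be told apart in this comparison. With nucleofection set against lipid, as the mean over both siRNAs, 9 of 47 genes were lower, against 22% of all genes, and 1 was higher, against 3.68% of all genes. The 10 called are 21.3% of the members, against 25.6% of all genes (1841 called), so the share is near the background. Members lay below 0 in 40 of 47, against 70.6% of all genes, with a median of −0.21, against −0.17 over all genes. In RNA from whole cultures, fewer cells of a type and less RNA per cell cannot be told apart.

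Of the SF3B and SF3A genes, which hold U2 on the branch site, SF3B2 and SF3A1 fell. SF3B2 read 172, 158 and 116 with AML1-ETO siRNA and 192 and 158 with luciferase siRNA by nucleofection, against 297, 234 and 297 with AML1-ETO siRNA and 247, 247 and 293 with luciferase siRNA by lipid. The array without siRNA read 131 and the untransfected arrays 274 and 249. No nucleofection array reached any lipid array, and the log2 difference was −0.74 (SE 0.13), a signal 40.3% lower, with an adjusted p of 0.00214. SF3A1, the largest SF3A subunit, read 256, 272 and 295 with AML1-ETO siRNA and 275 and 296 with luciferase siRNA by nucleofection, against 372, 299 and 338 with AML1-ETO siRNA and 359, 373 and 372 with luciferase siRNA by lipid. The arrays were apart, though narrowly, and the difference was −0.33 (SE 0.10) with an adjusted p of 0.0344. The array without siRNA read 276, below all 6 lipid arrays, and untransfected cells 378 and 312. The other 6 genes of these families did not pass.

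Of the HNRNP genes 4 fell and none rose. HNRNPAB read 689.5, 753 and 577 with AML1-ETO siRNA and 845 and 879.8 with luciferase siRNA by nucleofection, against 1085, 987 and 1244 with AML1-ETO siRNA and 1128, 1243 and 1164 with luciferase siRNA by lipid. Its difference was −0.58 (SE 0.11) with an adjusted p of 0.00309. HNRNPA0, which binds AU-rich RNA, read 192, 209 and 222 with AML1-ETO siRNA and 260.2 and 228 with luciferase siRNA by nucleofection, against 314, 312 and 321 with AML1-ETO siRNA and 289, 309.8 and 329.8 with luciferase siRNA by lipid. Its lipid arrays were close together and its difference was −0.48 (SE 0.09) with an adjusted p of 0.00396. HNRNPK, which binds runs of C, read 688, 760.4 and 735 with AML1-ETO siRNA and 673 and 748 with luciferase siRNA by nucleofection, against 891, 898 and 1113 with AML1-ETO siRNA and 1064, 972 and 977 with luciferase siRNA by lipid. Its difference was −0.45 (SE 0.10) with an adjusted p of 0.00719. HNRNPC, which binds runs of U on nascent transcripts, read 536, 605 and 537 with AML1-ETO siRNA and 670.3 and 686 with luciferase siRNA by nucleofection, against 813, 768 and 993 with AML1-ETO siRNA and 723, 888 and 914 with luciferase siRNA by lipid. Its difference was −0.46 (SE 0.11) with an adjusted p of 0.0121. In all 4, each nucleofection array was below each lipid array, and the array without siRNA was below all lipid arrays too.

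The remaining lower calls were an SR protein and both a U1 and an Sm ring protein. SRSF6, an SR protein, read 305, 317 and 322 with AML1-ETO siRNA and 330.4 and 277 with luciferase siRNA by nucleofection, against 413, 429 and 453 with AML1-ETO siRNA and 362, 376 and 447 with luciferase siRNA by lipid. Its arrays did not overlap and its difference was −0.42 (SE 0.11) with an adjusted p of 0.0139. SNRPD2, of the Sm ring, read 904, 1056 and 901 with AML1-ETO siRNA and 1252 and 1175 with luciferase siRNA by nucleofection, against 1535, 1432 and 1628 with AML1-ETO siRNA and 1132, 1519.5 and 1556 with luciferase siRNA by lipid. A luciferase lipid array lay among the nucleofection arrays, and the array without siRNA, at 1274, was above that lipid array. Its difference was −0.44 (SE 0.11) with an adjusted p of 0.014. SNRPA read 253, 247 and 212 with AML1-ETO siRNA and 344 and 352 with luciferase siRNA by nucleofection, against 324, 426 and 392 with AML1-ETO siRNA and 332, 344 and 416 with luciferase siRNA by lipid, a difference of −0.37 (SE 0.12) with an adjusted p of 0.0418. Here the AML1-ETO nucleofection arrays were low and the luciferase nucleofection arrays lay within the lipid range.

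U2AF1, the small U2AF subunit, which reads the AG at the end of the intron, was the sole member to rise. It read 575, 514 and 681 with AML1-ETO siRNA and 591 and 623 with luciferase siRNA by nucleofection, against 533, 465 and 482 with AML1-ETO siRNA and 539, 382 and 420.1 with luciferase siRNA by lipid. Its difference was 0.35 (SE 0.12) with an adjusted p of 0.0455, and an AML1-ETO nucleofection array at 514 lay within the lipid range. The array without siRNA read 681, and untransfected cells, at 360.0 and 356, were below every transfected array. Its partner U2AF2, which binds the polypyrimidine tract, differed by −0.19 with an adjusted p of 0.489.

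**Figure D3:**
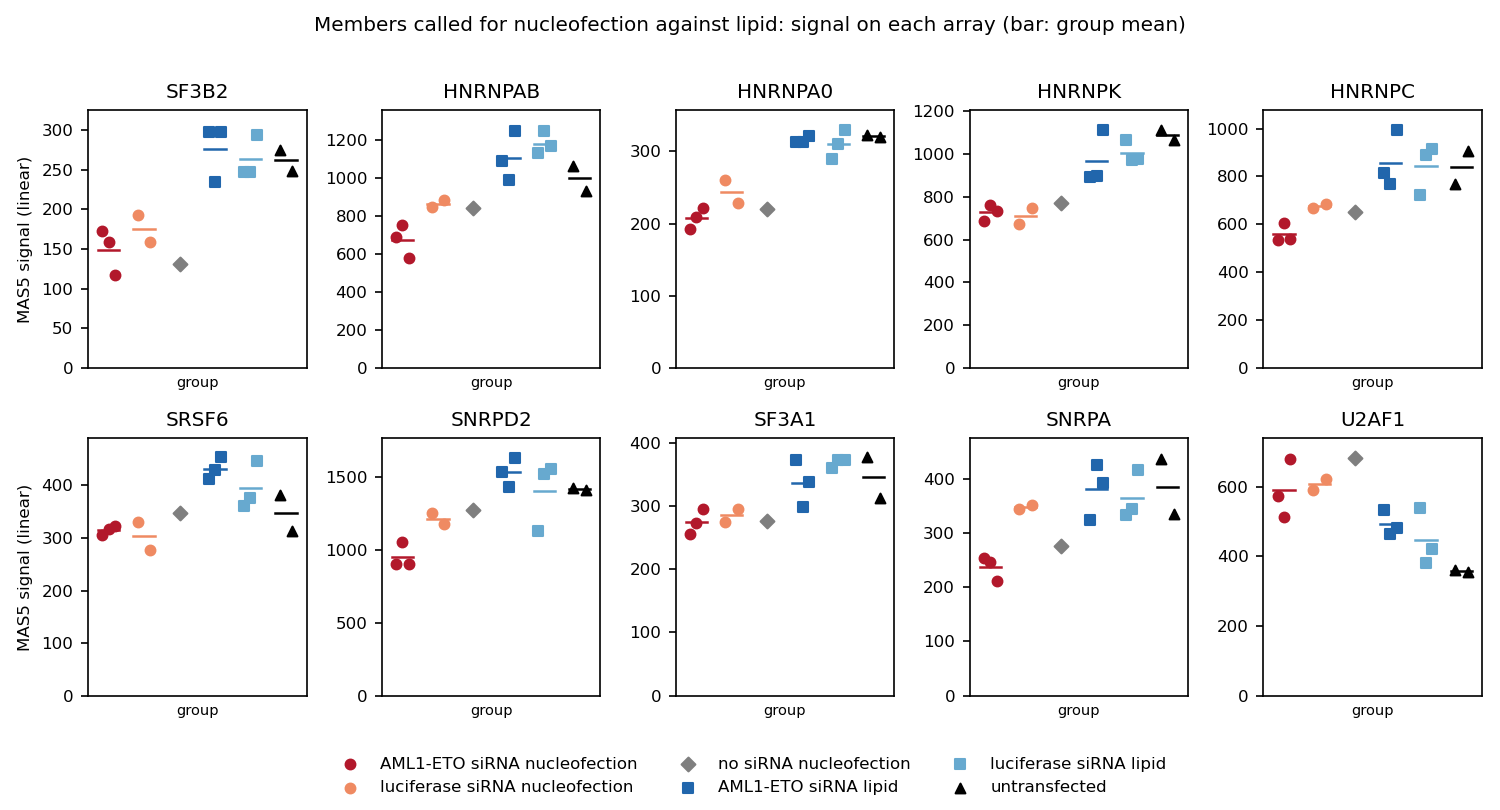
MAS5 signal (linear, from 0) on each of the 14 arrays for the 10 members called between nucleofection and lipid, by group, with bars at the group means. In 7 of the 10 panels all 5 nucleofection arrays with siRNA lie apart from all 6 lipid arrays.

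The plot of signals of the called members shows where the arrays stand. All 5 nucleofection arrays with siRNA were apart from all 6 lipid arrays in 7 of the 47 members, against 13.3% of all genes. All 7 were among the 10 called. The array without siRNA was on the nucleofection side of all lipid arrays in 9 of the 10, SNRPD2 being the exception. The 10 were picked with these same lipid arrays, and the share over all genes was not counted. That array was also outside the lipid range in most of the uncalled members, such as HNRNPA3 (below) and HNRNPL (above), and inside it in the others. Some measures of the arrays moved with the method as well. The 100 brightest probe sets took between 26.0% and 29.2% of the signal on nucleofection arrays with siRNA, against between 17.0% and 23.5% on lipid arrays. The log2 ratio of the 3′ to the 5′ GAPDH control probe set was between −0.18 and 0.25 on nucleofection arrays with siRNA, against between −0.38 and −0.17 on lipid arrays. The same ratio for ACTB overlapped, between 0.29 and 0.84 on nucleofection arrays with siRNA, against between 0.30 and 0.59 on lipid arrays. The part of these measures in the result was not tested.

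The scaling decides much of the direction. With quantile normalization in place of the deposited scaling, the median of all genes moved to −0.01, and the calls over all genes were 500 higher and 631 lower, where the deposited scaling gave 264 higher and 1577 lower. Among the members 4 were then higher and 2 lower, 20 of 47 lay below 0 and the median was 0.06. The sign differed between the scalings in 20 of 47. SF3B2 at −0.50 and HNRNPAB at −0.37 stayed lower (adjusted p = 0.0169 and 0.0165), and U2AF1 at 0.62 stayed higher (adjusted p = 0.00743). HNRNPL at 0.54, SF3B4 at 0.40 and SNRPE at 0.28 were called higher under quantile normalization only. The other 7 members called with the deposited scaling kept their sign and did not pass. With arrays centred on their medians, 8 members were lower and none higher.

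**Figure D4:**
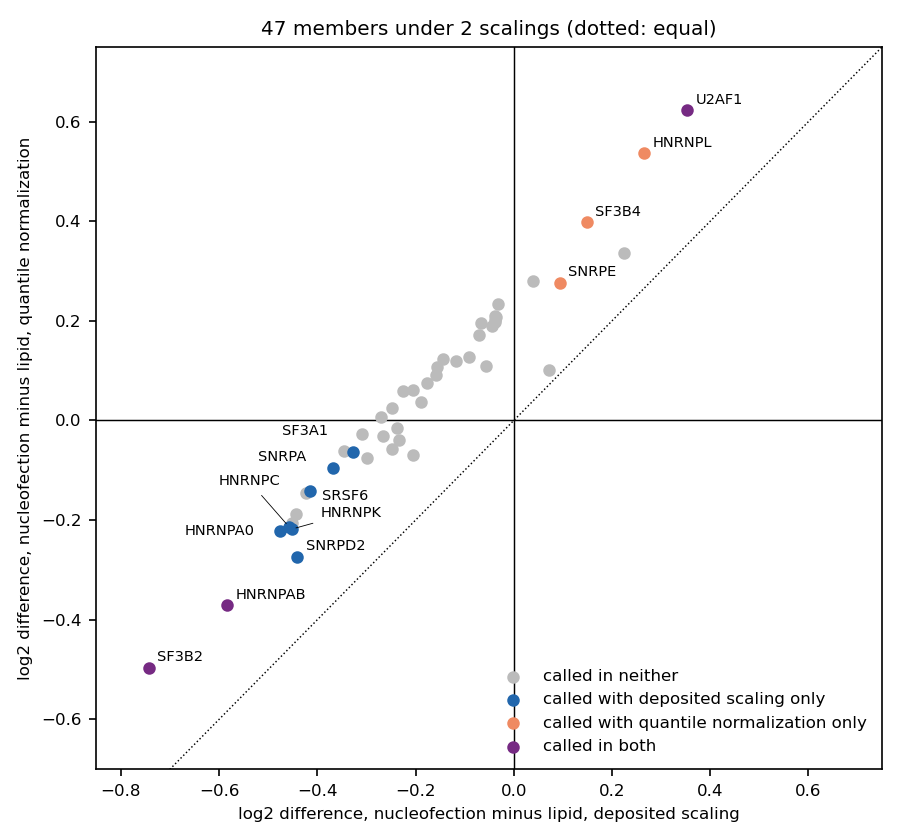
Log2 difference of nucleofection minus lipid for the 47 genes with the deposited scaling (horizontal) and after quantile normalization (vertical), coloured by the scaling under which the gene was called. Nearly all points lie above the dotted line of equal values, and 3 genes (SF3B2, HNRNPAB and U2AF1) were called under both.

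The promoters of SF3B2 and U2AF1 are shown because these genes had calls of opposite direction that held under both scalings in the plot of the 2 scalings. None of the 10 called members had the RUNX core in the form TGTGGT. The SF3B2 promoter, at chr11:66052114-66052363 on the plus strand of GRCh38.p14, holds CCGGAAG on both strands, in capitals. The U2AF1 promoter, at chr21:43107571-43107820 on the minus strand, holds neither motif.
SF3B2: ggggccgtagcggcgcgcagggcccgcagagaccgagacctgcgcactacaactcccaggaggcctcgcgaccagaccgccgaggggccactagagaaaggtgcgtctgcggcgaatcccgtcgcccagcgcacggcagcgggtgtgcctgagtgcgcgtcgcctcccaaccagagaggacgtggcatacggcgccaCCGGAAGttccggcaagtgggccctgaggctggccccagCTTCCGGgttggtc
U2AF1: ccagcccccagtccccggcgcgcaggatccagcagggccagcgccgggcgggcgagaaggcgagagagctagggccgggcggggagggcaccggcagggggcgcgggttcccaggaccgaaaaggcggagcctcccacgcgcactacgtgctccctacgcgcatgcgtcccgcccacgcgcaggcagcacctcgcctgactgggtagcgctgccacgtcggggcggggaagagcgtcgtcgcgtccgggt

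Against untransfected cells, the same arrays give a second view. The 4 comparisons share the 2 untransfected arrays. With AML1-ETO siRNA by nucleofection, 7 of 47 members passed, against 8.15% of all genes (585 called). Of these 6 were lower, against 6.42% of all genes, and 1 higher, against 1.73%. SF3B2 was lower by nucleofection at −0.83 (SE 0.20) and an adjusted p of 0.0242. HNRNPA0 was at −0.63 (SE 0.14), with untransfected arrays at 323 and 319 and an adjusted p of 0.0186. SF3B5 was at −0.65 (SE 0.15) and an adjusted p of 0.0203. SNRPA was at −0.69 (adjusted p = 0.0367), HNRNPK at −0.58 (adjusted p = 0.0346) and HNRNPAB at −0.57 (adjusted p = 0.0499). The untransfected arrays read 436 and 334 for SNRPA, 1114 and 1064 for HNRNPK and 1063 and 929 for HNRNPAB. U2AF1 was higher at 0.71 (SE 0.18) with an adjusted p of 0.0309. These calls rest on few arrays: without either untransfected array 0 members passed, and without single AML1-ETO nucleofection arrays between 2 and 4 did. With quantile normalization U2AF1 alone passed, and the calls over all genes were 176 higher and 171 lower, where the deposited scaling gave 124 higher and 461 lower.

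With luciferase siRNA by nucleofection, 2 of 47 members passed, against 5.14% of all genes (369 called). They were 1 higher, against 1.24% of all genes, and 1 lower, against 3.9%. U2AF1 rose at 0.76 (SE 0.19), a signal 69.4% higher, with an adjusted p of 0.0423. HNRNPK fell, at −0.62 (SE 0.16) and an adjusted p of 0.0494. HNRNPDL read 507 and 421 with luciferase siRNA by nucleofection, against 833 and 616 in untransfected cells, a difference of −0.63 with an adjusted p of 0.0805. HNRNPUL2, a dim gene, read 38.8 and 32.4 with luciferase siRNA by nucleofection, against 22.3 and 27.8 in untransfected cells, a difference of 0.51 with an adjusted p of 0.11. Both calls were lost without any 1 of the 4 arrays. With arrays centred on their medians, the median of all genes lay at −0.25, against −0.06 with the deposited scaling, and 5 members were lower and none higher.

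By lipid no member differed from untransfected cells past the threshold. With luciferase siRNA by lipid 0 of 47 passed, against 0% of all genes, and 2 members had an unadjusted p below 0.05, against 3.72% of all genes. HNRNPUL2 read 34.7, 39.4 and 34.1 with luciferase siRNA by lipid, a difference of 0.53. SF3B5 was at −0.34, U2AF1 at 0.30 and HNRNPAB at 0.24, all with an adjusted p of 1. With AML1-ETO siRNA by lipid 0 of 47 passed, against 0.111% of all genes (8 called), and 2 members had an unadjusted p below 0.05, against 5.84% of all genes. U2AF1 was at 0.46 (adjusted p = 0.704), HNRNPH3 at −0.35 (adjusted p = 0.834), HNRNPDL at −0.39 (adjusted p = 0.853) and SNRPG at −0.43 (adjusted p = 0.854). The untransfected arrays read 331 and 367 for HNRNPH3 and 1060.3 and 904 for SNRPG.

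Many members have several probe sets, and these did not always move together. With a mean signal of at least 50, 28 members had 2 or more. Between nucleofection and lipid the probe sets of a gene had the same sign in 17 of 28, and in the mean knockdown effect in 15 of 28. The Pearson correlation of log2 signal over the 14 arrays, given as a description since probe sets share the arrays and their scaling, had a median of 0.39 over these genes. Its lowest value within a gene was above 0.5 in 8 of 28 and below 0 in 8 of 28. Of all 98 member probe sets tested as separate features, 1 was higher and 19 were lower by nucleofection, 20.4%, against 22.6% of 11439 probe sets. In the mean knockdown effect 0 of 98 passed, against 1.36% of all probe sets.

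The probe sets of HNRNPUL1, a relative of HNRNPU, differed most. Its second probe set lay between 28.3 and 62.7 on nucleofection arrays with siRNA, against between 118 and 162 on lipid arrays, a difference of −1.70 (SE 0.18) with an adjusted p of 0.000134. The brightest lay between 132 and 202 by nucleofection, against between 191 and 309 by lipid, a difference of −0.45 (SE 0.17) with an adjusted p of 0.0675. Both were lower, by very different amounts. For HNRNPA1 the brightest probe set was at −0.09 (adjusted p = 0.58) and a dim one, between 25 and 55.8 by nucleofection, against between 55.2 and 95.5 by lipid, at −1.13 (adjusted p = 0.00237). For SRSF6 the probe sets went opposite ways. The brightest was at −0.42 (adjusted p = 0.0187) and the other, between 73.8 and 183 by nucleofection, against between 40.9 and 98.1 by lipid, was at 0.58 (adjusted p = 0.109), with r = −0.43 between them, so the call for SRSF6 depends on the probe set. HNRNPC had 3 of 4 probe sets called lower, between −0.57 and −0.39, and the other at 0.09. HNRNPA0 had its brightest at −0.48 (adjusted p = 0.00577) and the other at 0.13 (adjusted p = 0.483). With r = −0.56 between them, the call for HNRNPA0 depends on the probe set too. SNRPE had its brightest at 0.09 (adjusted p = 0.587) and the other at 0.63 (adjusted p = 0.00461). For HNRNPU, the member with the widest gap in the knockdown mean, the probe sets lay between −0.27 and 0.23, and none passed.

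**Figure D5:**
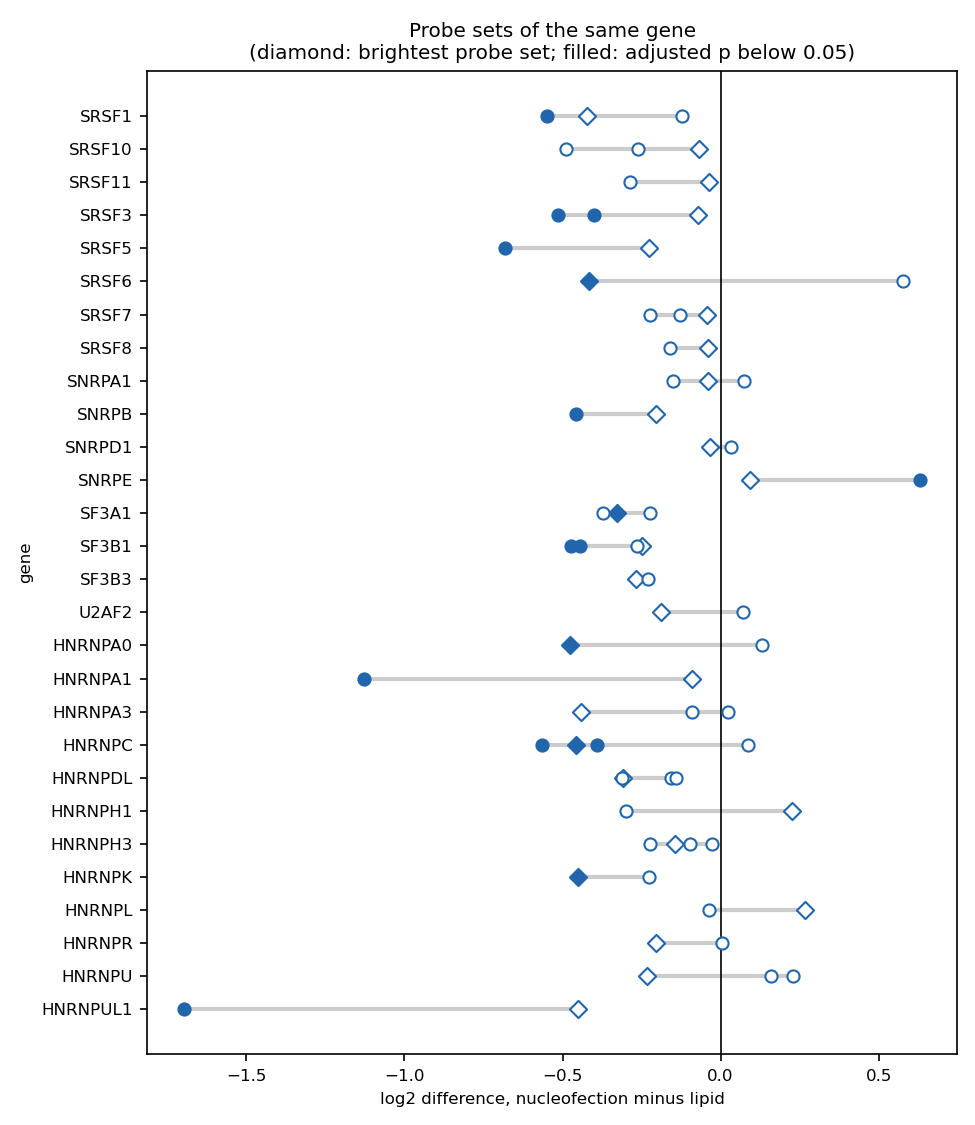
Log2 difference of nucleofection minus lipid for every probe set with a mean signal of at least 50, for the 28 genes with 2 or more (rows); diamonds mark the brightest probe set and filled symbols an adjusted p below 0.05. HNRNPUL1 and HNRNPA1 have a second probe set far below the brightest, and the probe sets of SRSF6 lie on either side of 0.

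The plot of probe sets of the same gene also shows members whose brightest probe set did not pass while others did. SF3B1 had 4 probe sets below 0, between −0.47 and −0.25, of which 2 passed. SRSF3, an SR protein, had its brightest at −0.07 and the others at −0.40 and −0.52, both called. SRSF5, an SR protein, had its brightest at −0.23 (adjusted p = 0.187) and the other at −0.68 (adjusted p = 0.00306). SNRPB had its brightest at −0.21 and the other, which passed, at −0.46. SRSF1, an SR protein, had 3 probe sets between −0.55 and −0.12, of which 1 passed.

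Other genes of the splicing pathway, 7 lists of 166 symbols with 129 on the array and 119 tested, give the setting. In the mean knockdown effect 1 of 119 was lower and none higher, against 0.515% and 1.14% of all genes. It was SYNCRIP, a cytoplasmic hnRNP relative, which read 355, 365 and 320.3 with AML1-ETO siRNA by nucleofection, against 448 and 557 with luciferase siRNA by nucleofection, and 432, 391 and 489 with AML1-ETO siRNA by lipid, against 607, 559 and 633 with luciferase siRNA by lipid, with no overlap by either method. Its difference was −0.49 (SE 0.11) with an adjusted p of 0.0362. The smallest p in the other lists belonged to PRPF31 (−0.30) and SART3 (−0.41) of the snRNP proteins, XAB2 (−0.54) and DHX35 (0.46) of the Prp19 and catalytic proteins, and SUGP1 (0.34) and SF1 (−0.32) of early assembly. RBFOX2 (−0.33) followed SYNCRIP among the regulators, CLK1 (0.39) and DYRK1A (−0.23) led the SR protein kinases, STRAP (−0.21) and WDR77 (0.32) snRNP assembly, and SMG5 (−0.36) and RNPS1 (−0.19) the exon junction complex. The adjusted p of these 13 lay between 0.114 and 0.693.

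Between nucleofection and lipid 2 of 119 were higher and 23 lower, 21%, against 25.6% of all genes. SF1, the protein that first binds the branch site, lay between 227 and 383 by nucleofection, against between 495 and 562 by lipid, a difference of −0.88 (SE 0.09) with an adjusted p of 9.08e-05. It was also lower with AML1-ETO siRNA than with luciferase siRNA by nucleofection, at −0.63 with an adjusted p of 0.0327, its arrays reading 228, 243 and 227 with AML1-ETO siRNA, against 338 and 383 with luciferase siRNA. RBM5, a splicing regulator, was at −0.57 (adjusted p = 0.00254). Of the snRNP proteins 6 of 26 were lower, led by SNRNP25 at −0.61 (adjusted p = 0.00297) and SNU13 at −0.51 (adjusted p = 0.00987). Of the Prp19 and catalytic proteins 2 of 20 were higher and 1 lower. CDC5L, a core Prp19 complex protein, lay between 143 and 178 by nucleofection, against between 80.4 and 125 by lipid, and rose by 0.71 (adjusted p = 0.00485), while PPIE was at −0.38 (adjusted p = 0.0436). Of the other regulators 9 of 25 were lower, led by KHDRBS1 at −0.62 (adjusted p = 0.00326) and RBFOX2 at −0.45 (adjusted p = 0.00954).

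Of all genes, 22% were lower in this comparison, the share to set beside the counts of each list. Early assembly had 4 of 20 lower, and SR protein kinases and import 1 of 9, PNN. It lay between 434 and 479 by nucleofection, against between 539 and 766 by lipid, at −0.48 (adjusted p = 0.00849). CLK4 of the same list, at −0.35 (adjusted p = 0.0627), did not pass. The exon junction complex had 2 of 7 lower, UPF1 at −0.32 (adjusted p = 0.046) and RBM8A at −0.44 (adjusted p = 0.0496). Of the 12 snRNP assembly genes none passed, and NCBP2 at −0.29 and GEMIN4 at −0.36 had the smallest p.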

How the data were processed

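RNA of 14 arrays was analysed. The authors deposited 1 linear intensity per probe set, made with MAS5 per the submitters' processing notes. Its settings are not given in the sources used here. A scale factor had been applied to every array, per the labels, and a change shared by most genes cannot be seen. By the platform annotation, 19065 of 22283 probe sets have 1 gene symbol, 1043 several and 2107 none, and 68 are controls. Names came from those with 1 symbol.

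Intensities were raised to a floor of 20 and log2 was taken, which understates the differences of dim genes. Between 38.4% and 44.3% of probe sets of an array lay below the floor. The brightest probe set on average stood for each of 11963 genes, of which the upper 60% (7178, mean signal at least 26.6) were tested. In R 4.3.3, limma 3.58.1 (lmFit, eBayes) was fitted to 6 group means over 14 arrays, with 8 residual and 4.65 prior degrees of freedom. The threshold was 0.05 for the Benjamini-Hochberg adjusted p over all genes tested, and the adjusted p-values given for single probe sets come from the same fit to 11439 probe sets. The number of arrays limits the precision. The steps were tested on simulated data.

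The members, the 7 pathway lists and the markers were chosen with earlier results of these data known. Members were named in full where called (up to 8 per comparison by p, or the 4 smallest p where fewer than 4 passed), where brightest of their family, and for the 5 genes whose probe sets differed most. From each pathway list, the 2 genes of smallest p are given for the mean knockdown effect and for nucleofection against lipid. The exceptions are the last 2 of the 10 calls between nucleofection and lipid, and the other called pathway genes counted. Further exceptions are HNRNPU, SNRPE, SF3B1, SRSF1, SRSF3, SRSF5 and SRSF11, chosen after their values were seen. Alternatives changed the scaling, floor, filter, probe sets, variance model, arrays fitted, replicate block and single arrays. Promoters are RefSeq's (GRCh38.p14). Python 3.11.15, pandas 2.3.3, numpy 2.4.6 and matplotlib 3.10.9 were used.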

Additional observations from a re-analysis of the deposited data

How the results depend on the processing

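With the mean of both methods, by lipid, and for both lipid groups against untransfected cells, 0 members passed under every alternative run. For knockdown by nucleofection 1 member passed with a floor of 64, with the upper 40% of genes and with a trended, robust variance (0 otherwise), and for the difference between methods 1 passed with a floor of 64. The 10 members called between nucleofection and lipid became 6 with quantile normalization, 16 with the mean of all probe sets, 17 with a floor of 64, 17 with the upper 40% of genes and 18 with the trended, robust variance, and between 7 and 11 without single arrays. SF3B2 and HNRNPAB kept their call under all 24 alternatives, while U2AF1 lost it in 14, SNRPA in 13 and SF3A1 in 12. SRSF6 turned to 0.081 with the mean of all probe sets. The 7 members called for AML1-ETO nucleofection against untransfected cells became 1 with quantile normalization, 12 with a floor of 64, 11 with the trended, robust variance, 0 with only the arrays compared, and between 0 and 4 without single arrays. The 2 called for luciferase nucleofection against untransfected cells became 5 with median-centred arrays, 4 with a floor of 64, 1 with quantile normalization, 1 with probe sets that do not end in _s_at or _x_at taken first, 1 with all probe sets as features, 0 with only the arrays compared, and 0 without any single array. HNRNPDL in AML1-ETO lipid cells against untransfected cells turned to 0.14 with the probe sets that do not end in _s_at or _x_at. The cause of these shifts was not tested, except that fits on fewer arrays have fewer degrees of freedom and a higher floor or narrower filter tests fewer genes.

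The labels give replicate numbers that recur across groups. The deviations of same-numbered arrays from their group means correlated between −0.29 and 0.05 over 22 pairs, with 0 above 0.1, so the numbers were not taken to pair the arrays. With the replicate number as a block, 7 members were called between nucleofection and lipid, 1 for AML1-ETO nucleofection against untransfected cells, 0 for luciferase nucleofection against untransfected cells and 0 in the other comparisons.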
